A study of Mus musculus with 4 samples.

Results

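Hoxc4, Hoxc5, Hoxc6, Hoxc8, Hoxc9 and Hoxc10 are 6 homeobox genes of the HoxC cluster that were described here as silent in normal mouse hematopoietic stem cells. They were taken by symbol from the count tables, 6 of the 24016 gene symbols measured, and 6 of the 9 protein-coding Hoxc genes. The members were chosen by their CPM in NHD13 against wild-type cells in these same libraries (near 0 in wild type, present in NHD13), so their difference between the groups is a description and carries no test. Each of the 6 symbols had 1 RefSeq transcript in the tables, so there were no separate transcripts of a member to compare.

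RNA was sequenced from stem cells of C57BL/6 bone marrow taken at 4 months of age, sorted as lineage-negative, Sca-1+, c-Kit+, CD34-, Flt3- and CD150+. The wild-type (WT) group and the NHD13+ transgenic group had 2 libraries each, and no further allele or treatment is given for either. NHD13 mice carry a human NUP98-HOXD13 fusion, which joins a nuclear pore protein to a homeodomain, under regulatory elements of the Vav1 gene that drive it in blood cells generally, and they serve as a model of myelodysplastic syndrome. Nothing in the labels tells whether each library is an animal or a pool of animals, so the SDs and p-values refer to the spread between libraries, which may be technical. With 1 transcript per gene the libraries held 35025974 to 48423689 counts.

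Hox genes encode transcription factors that set position along the body axis. They lie in 4 clusters, A to D, in an order that matches where they act, from low-numbered anterior genes to high-numbered posterior genes, and active and silent stretches of a cluster are kept by trithorax (MLL) and Polycomb proteins. In blood, Hoxa genes and some Hoxb genes are active in stem cells and fade as cells mature, and fusions of NUP98 are known for their link to high Hox expression in leukemia.

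The homeobox, which encodes the DNA-binding homeodomain, is shown for 5 members because it is the part by which they resemble each other. Each sequence is the 180 coding bases read from the GENCODE M21 transcript (GRCm38) matched to the counted RefSeq transcript, 5′ to 3′ on the plus strand of chromosome 15, and capitals mark 18 bases that encode the core of the third, DNA-contacting helix.
Hoxc4: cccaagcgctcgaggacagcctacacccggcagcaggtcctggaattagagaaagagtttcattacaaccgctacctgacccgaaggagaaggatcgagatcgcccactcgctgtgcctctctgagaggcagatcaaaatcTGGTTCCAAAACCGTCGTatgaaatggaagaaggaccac
Hoxc6: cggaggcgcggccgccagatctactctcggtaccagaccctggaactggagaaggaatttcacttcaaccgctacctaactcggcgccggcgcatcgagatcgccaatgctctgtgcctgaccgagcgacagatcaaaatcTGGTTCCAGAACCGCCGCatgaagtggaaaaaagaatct
Hoxc8: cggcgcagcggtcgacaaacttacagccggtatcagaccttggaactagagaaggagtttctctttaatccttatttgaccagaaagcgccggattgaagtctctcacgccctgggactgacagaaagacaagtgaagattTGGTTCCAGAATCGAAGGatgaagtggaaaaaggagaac
Hoxc9: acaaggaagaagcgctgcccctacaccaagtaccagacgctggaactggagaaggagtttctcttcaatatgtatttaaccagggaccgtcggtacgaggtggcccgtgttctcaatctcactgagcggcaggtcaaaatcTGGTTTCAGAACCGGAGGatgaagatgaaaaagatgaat
Hoxc10: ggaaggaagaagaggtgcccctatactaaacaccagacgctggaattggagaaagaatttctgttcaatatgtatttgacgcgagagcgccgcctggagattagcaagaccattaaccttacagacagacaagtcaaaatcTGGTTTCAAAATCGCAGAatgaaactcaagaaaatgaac
Each homeobox lay inside the last exon of its transcript, which is exon 3 of 3 in Hoxc9 and exon 2 of 2 in the other 4 shown. In GRCm38 they are at chr15:103035663-103035842 (Hoxc4), chr15:103010754-103010933 (Hoxc6), chr15:102992571-102992750 (Hoxc8), chr15:102983930-102984109 (Hoxc9) and chr15:102970848-102971027 (Hoxc10). The counts were made on another build, mm9. Between pairs of these 5 the 180 bases were 59.4 to 71.7 percent identical, with Hoxc9 and Hoxc10 the closest pair and Hoxc4 and Hoxc6 next at 70.6 percent.

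The reads were 75 bases long, so each 75-base window of a member's transcript was compared with the transcripts of all other genes, allowing 2 mismatches on either strand. No window of Hoxc4, Hoxc5, Hoxc6 or Hoxc8 occurred in another gene, and their longest identical runs with any other transcript were 28 to 57 bases. In Hoxc9, 29 of 2300 windows (1.26 percent) were shared. In Hoxc10, 97 of 1835 windows (5.29 percent) were shared, all with a longer GENCODE transcript of Hoxc5 that holds 166 exon bases of Hoxc10. Exons of the 6 matched transcripts did not overlap each other.

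All 6 members were below 1 CPM (counts scaled to a common library size, with edgeR's TMM factors) in both WT libraries, with a range of 0 to 0.690 CPM. That is near silence rather than absence, since 5 of the 6 had counts in every library.

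The anterior members come first. Hoxc4, the paralog of the stem cell regulator Hoxb4, was counted 18 and 2 times in the WT libraries and 1107 and 1487 times in the NHD13 libraries. In CPM that was 0.414 and 0.0547 against 32.2 and 30.4, so both NHD13 libraries stood far above both WT libraries. Hoxc5, its neighbour in the cluster, showed 26 and 6 WT counts (0.598 and 0.164 CPM) next to 1726 and 2249 NHD13 counts (50.2 and 45.9 CPM). Hoxc6, a gene of thoracic identity in the embryo, showed 30 and 22 WT counts (0.690 and 0.602 CPM), the highest WT values of the members in CPM, next to 667 and 760 NHD13 counts (19.4 and 15.5 CPM). In these 3 genes the groups did not overlap and the NHD13 libraries differed from each other by much less than from WT.

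Hoxc8, which patterns the trunk and limb nerves, showed 6 and 1 WT counts (0.138 and 0.0274 CPM) next to 1383 and 1710 NHD13 counts (40.3 and 34.9 CPM). Hoxc9, a posterior paralog of the leukemia gene Hoxa9, showed 9 and 5 WT counts (0.207 and 0.137 CPM) next to 342 and 259 NHD13 counts (9.95 and 5.29 CPM). Both genes were without overlap between groups, and Hoxc9 had fewer NHD13 counts than the 4 genes before it. Hoxc10, which acts in the hindlimb and lumbar region, showed 12 and 0 WT counts (0.276 and 0 CPM, where 3 counts would be 0.0821 CPM) next to 45 and 4 NHD13 counts (1.31 and 0.0816 CPM). Its groups overlapped, because NHD13 library 2 was below WT library 1.

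**Figure D1:**
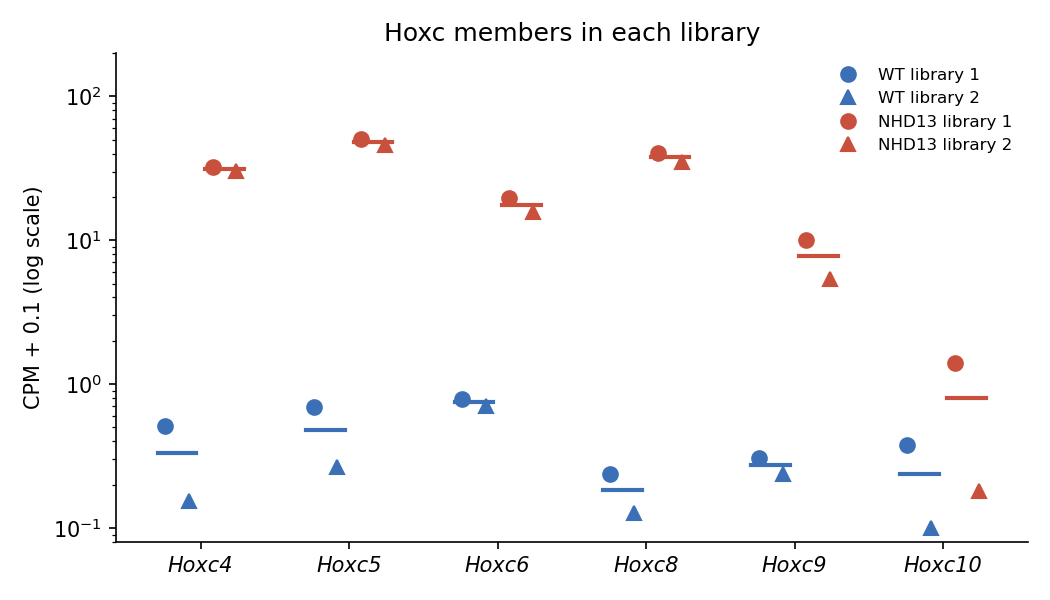
Level of each Hoxc member in the 4 libraries, as CPM + 0.1 on a log scale; points are libraries, horizontal lines are group means (n = 2 libraries). The NHD13 points of Hoxc4 to Hoxc9 lie at 5.29 to 50.2 CPM, above all WT points, while those of Hoxc10 straddle WT library 1.

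Group means and the fitted ratio summarise this. NHD13 against WT was 31.3 CPM ± 1.32 (SD, n = 2) against 0.234 ± 0.254 for Hoxc4, with a fitted log2 ratio of 6.98 ± 0.66 (SE). Hoxc5 was at 48.1 ± 3.07 against 0.381 ± 0.307 CPM (log2 ratio 6.92 ± 0.50), and Hoxc6 at 17.5 ± 2.76 against 0.646 ± 0.0620 CPM (log2 ratio 4.75 ± 0.27). Hoxc8 was at 37.6 ± 3.78 against 0.0827 ± 0.0782 CPM, a log2 ratio of 8.71 ± 0.45. Hoxc9 was at 7.62 ± 3.30 against 0.172 ± 0.0496 CPM (log2 ratio 5.43 ± 0.54). Hoxc10 was at 0.696 ± 0.868 against 0.138 ± 0.195 CPM, with a log2 ratio of 2.24 ± 1.76, an error nearly as large as the value.

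Few WT counts limit how well the size of these ratios is known. With exact 95% counting intervals, which cover counting error only, the ratio of group totals was 124.5 (80.5 to 204) for Hoxc4, 119 (84.3 to 175) for Hoxc5 and 26.4 (19.98 to 35.5) for Hoxc6. For Hoxc8 it was 424 (206 to 1056), for Hoxc9 41.2 (24.4 to 75.9) and for Hoxc10 3.92 (2.06 to 8.10). Without WT library 1 the fitted log2 ratio was 9.07 for Hoxc4, 8.16 for Hoxc5, 10.26 for Hoxc8 and 7.78 for Hoxc10; without NHD13 library 1 that of Hoxc10 was -0.75. In bulk RNA, more cells that hold the transcript and more transcript per cell cannot be told apart.

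In all, 5 of 6 members had both NHD13 libraries above both WT libraries, against 30.1 percent of the 14853 genes that passed the filter on low counts; 0 of 6 had both below, against 30.3 percent. The same 5 were under 1 CPM in both WT libraries and at 5 CPM or more in both NHD13 libraries, against 0.125 percent of 20806 genes with a count (the reverse pattern was also found in 0.125 percent, with 0 members). These shares only describe the members, since the same contrast chose them. All 6 passed the filter, but only Hoxc6 (30 and 22 WT counts) could have passed on WT alone. The other members had at most 6 counts in WT library 2, under the filter's minimum of 10, and needed NHD13 to pass. The median log2 ratio was 6.18 for the members and 0.001 for all genes tested.

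Along the chromosome the gene order was Hoxc13, Hoxc12, the antisense RNA gene Hotair, Hoxc11, Hoxc10, Mir196a-2, Hoxc9, Hoxc8, Hoxc6, Hoxc5, Mir615 and Hoxc4 (RefSeq, GRCm38.p6). To compare levels between genes, CPM were divided by the length of the matched GENCODE transcript. Per kilobase, NHD13 levels were 20.1 ± 2.03 for Hoxc8, 16.4 ± 1.05 for Hoxc5, 15.8 ± 0.667 for Hoxc4, 11.04 ± 1.75 for Hoxc6, 3.21 ± 1.39 for Hoxc9 and 0.364 ± 0.455 for Hoxc10 (CPM per kb, SD, n = 2). In that order the libraries of Hoxc5 and Hoxc4 overlapped (17.2 and 15.7 against 16.3 and 15.3), and those of the other neighbours in the order did not. The level therefore stepped down between Hoxc8 and Hoxc9 and again between Hoxc9 and Hoxc10.

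The posterior end beyond Hoxc10 had almost no counts. Hoxc11 and Hoxc12 had 0 counts in all 4 libraries, which allows up to 0.0612 to 0.0873 CPM per library at 3 counts. Hoxc13 had 2 counts in WT library 1 and 0 in the others. Hotair had 1 count in NHD13 library 2 and 0 elsewhere, Mir615 had 1 in NHD13 library 1 and Mir196a-2 had none, though small RNAs are not captured well by this kind of library. In WT, per-kilobase levels across the 6 members were 0.0739 to 0.436 CPM per kb in library 1 and 0 to 0.381 in library 2, with Hoxc6 highest in both.

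**Figure D2:**
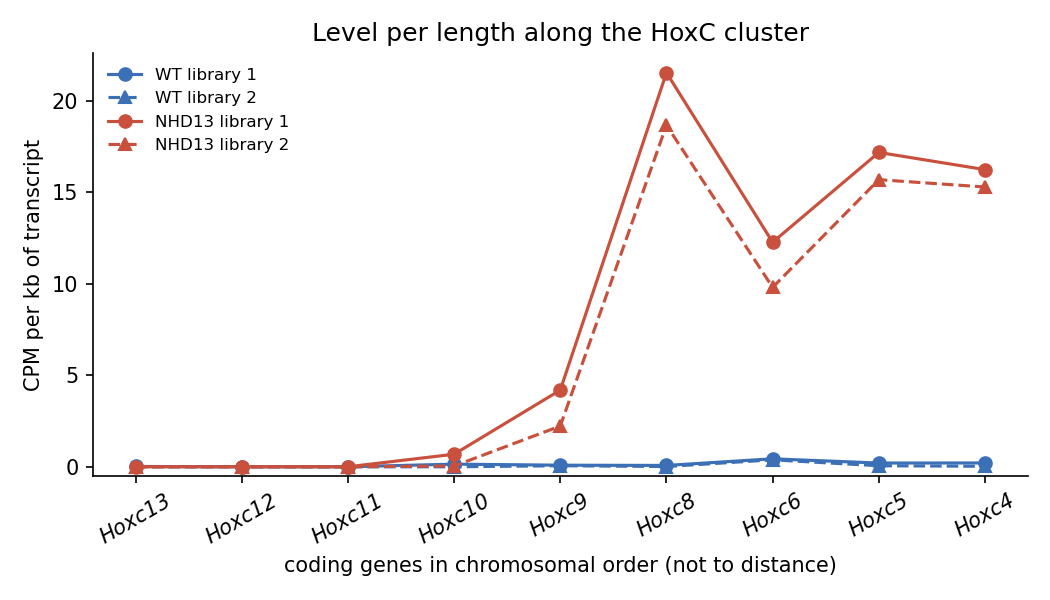
CPM per kilobase of transcript for the 9 coding Hoxc genes in chromosomal order, with 1 line per library. Both NHD13 lines run at 9.81 to 21.6 from Hoxc8 to Hoxc4, drop to 4.19 and 2.23 at Hoxc9 and reach 0 from Hoxc11 to Hoxc13, while both WT lines stay below 0.5.

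How far the members moved together between the 2 NHD13 libraries did not enter their choice. Every member was lower in library 2 than in library 1 on the CPM scale. The CPM ratio of library 2 to library 1 was 0.942 (exact 95% counting interval 0.871 to 1.02) for Hoxc4, 0.914 (0.858 to 0.973) for Hoxc5, 0.867 (0.807 to 0.931) for Hoxc8 and 0.799 (0.719 to 0.888) for Hoxc6. It was 0.531 (0.450 to 0.626) for Hoxc9 and 0.0623 (0.0163 to 0.171) for Hoxc10. The intervals of Hoxc9 and Hoxc10 lay below those of the 4 others and did not overlap each other. These intervals compare 2 libraries, not conditions, and leave out the spread between replicates.

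Among 11683 genes with a mean of at least 100 counts in the NHD13 libraries the median of this ratio was 0.999. A ratio at or below that of Hoxc9 was found in 2.70 percent of them, and at or below that of Hoxc4 in 36.2 percent. As shares of all counts over the 6 members, Hoxc9 took 6.49 percent (exact 95% interval 5.84 to 7.19) in library 1 and 4.00 percent (3.54 to 4.51) in library 2. Hoxc10 took 0.854 percent (0.624 to 1.14) and 0.0618 percent (0.0169 to 0.158). The shares of Hoxc8 were alike, 26.2 percent (25.1 to 27.5) and 26.4 percent (25.4 to 27.5).

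**Figure D3:**
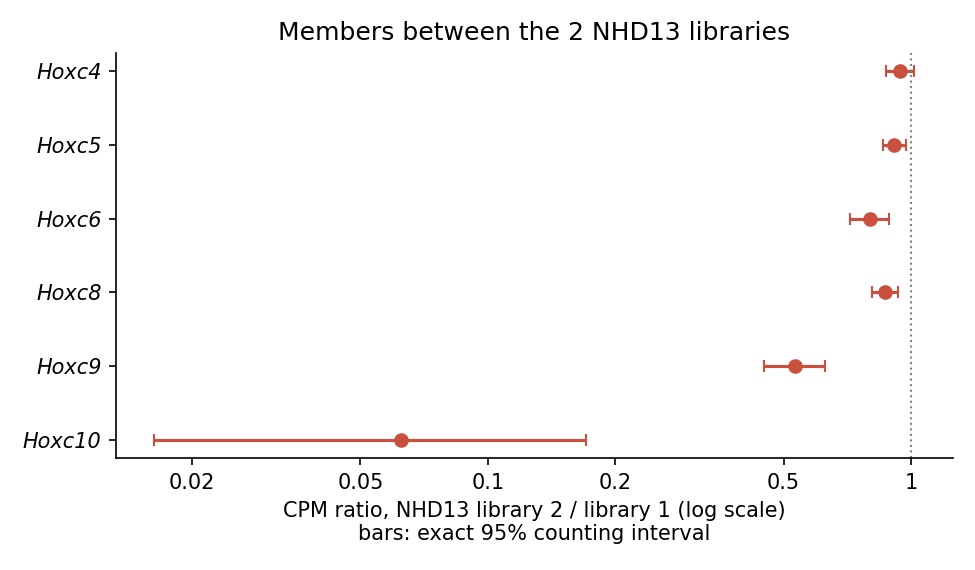
Ratio of CPM in NHD13 library 2 to NHD13 library 1 for each member, on a log scale; bars are exact 95% counting intervals and the dotted line marks equal levels. Hoxc4, Hoxc5, Hoxc6 and Hoxc8 lie at 0.799 to 0.942, Hoxc9 at 0.531 and Hoxc10 at 0.0623.

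The WT libraries also differed. All 6 members were higher in WT library 1 than in WT library 2, 101 counts in all against 36. The share of all genes higher in WT library 1 was not computed. The CPM ratio of library 1 to library 2 was 7.56 (exact 95% counting interval 1.81 to 67.2) for Hoxc4 and 3.64 (1.47 to 10.8) for Hoxc5, while the intervals of Hoxc6, Hoxc8 and Hoxc9 included 1 and Hoxc10 had 12 counts against 0.

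Markers of other cells were compared with the members, since mesenchymal cells outside the blood can hold Hoxc RNA. All 11 stroma and osteoblast markers had counts, and 10 of 11 were higher in WT library 1 than in WT library 2; their summed level was 85.1 and 17.95 CPM in WT and 36.4 and 37.5 CPM in NHD13. Sparc was at 35.6 and 0.602 CPM in WT, and at 0.407 and 2.08 CPM in NHD13. The part of these cells in the WT counts of the members was not tested, and no share over all genes stands beside the shared direction. Pdgfrb made up most of both NHD13 sums, with 33.0 and 22.7 CPM (WT libraries 10.4 and 5.58). Pdgfra (0 and 0.122 CPM), Dcn (0 and 0.449), Col3a1 (0 and 0.0612) and Twist1 (0.0873 and 0.0612) were low in NHD13. Prrx1 was there at 0.262 and 0.531 CPM, Col1a1 at 0.757 and 2.08 and Col1a2 at 1.8 and 4.2. Cxcl12 (0.116 and 3.18 CPM) and Lepr (0 and 1.96) exceeded both WT libraries in NHD13 library 2 only. Their WT values were 1.40 and 0.0821 CPM for Cxcl12 and 0.345 and 0.821 for Lepr. The part of stroma in the members' NHD13 levels was also not tested.

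Among markers of blood cells, the 6 neutrophil genes summed to 2562 and 337 CPM in NHD13 and 296 and 243 CPM in WT, so they were high mainly in NHD13 library 1. In NHD13 library 2, Ltf (49.7 CPM) lay between its WT values (53.4 and 41.6). The other 5 were above both WT libraries there. S100a8 (80.1 against 78.7 and 69.9 CPM in WT), S100a9, Camp and Mmp8 were so only narrowly, and Ngp (132 against 94.3 and 70.1) by more. T and NK cell genes summed to 32.9 and 147 CPM in NHD13 and 42.7 and 47.02 CPM in WT. Klrb1c was most of both WT sums (39.2 and 44.8 CPM) and of the NHD13 library 1 sum (29.4 CPM). It was at 48.8 CPM in NHD13 library 2, so its groups overlapped. Cd3e (36.3 CPM), Cd3g (30.8) and Gzmb (30.3) were high in NHD13 library 2. Cd3d and Cd2 were below 1 CPM in all libraries, and Ncr1 was lower in both NHD13 libraries than in WT. Between the same NHD13 libraries the ratios of Hoxc4, Hoxc5, Hoxc6 and Hoxc8 were 0.799 to 0.942, as given above. The ratio of Hoxc9 was 0.531 and that of Hoxc10 was 0.0623. The 5 early myeloid genes summed to 1315 and 916 CPM in NHD13 and 351 and 337 CPM in WT. Of these, Mpo (709 and 587 CPM against 48.97 and 39.2), Elane, Ctsg and Ms4a3 were higher in both NHD13 libraries than in both WT libraries, and Prtn3, most of the WT sum, was lower (229 and 165 CPM against 270.2 and 273). The 4 mast cell and basophil genes moved in different ways. Ms4a2 was at 111 and 4.45 CPM in NHD13 and Cpa3 at 21.3 and 107 CPM, each high mainly in a different library, while Fcer1a was at 0 and 0.0204 CPM against 0.920 and 1.70 in WT and Mcpt8 overlapped between groups. The part of these cells in the members' levels was not tested. All 8 stem cell markers were present, with a summed level of 2145 and 2609 CPM in NHD13 and 3506 and 3640 CPM in WT. Of the 6 muscle and kidney markers, Umod had 0 counts and Myod1, Myf5 and Pax2 were below 0.1 CPM in each library. Wt1 reached 0.230 CPM in WT library 1 and 0.143 in NHD13 library 2, and Acta1 was at 1.17 and 0.246 CPM in WT and 0.116 and 0.735 in NHD13.

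The other Hox genes give the setting. Of the transgene's partner genes, Hoxd13 was counted 14 and 3 times in WT libraries and 65 and 78 times in NHD13 libraries. Its log2 ratio was 3.07 ± 0.76 (edgeR adjusted p 0.0893, DESeq2 adjusted p 0.0162). Nup98 was at 160 and 158 CPM in WT and 160 and 162 in NHD13. Whether reads of the human transgene aligned to these mouse genes was not tested. In WT several paralogs of the members were well above them, which partly follows from the choice of the members as near 0 in WT. Per kilobase, Hoxb5 was at 11.4 ± 0.128 and Hoxa5 at 5.63 ± 0.494 CPM per kb against 0.1303 ± 0.105 for Hoxc5, and Hoxb4 at 1.89 ± 0.00192 against 0.118 ± 0.128 for Hoxc4 (SD, n = 2).

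In NHD13, Hoxc4 at 15.8 ± 0.667 CPM per kb stood above Hoxa4 (1.84 ± 0.0843), Hoxb4 (1.23 ± 0.0441) and Hoxd4 (0.448 ± 0.251). Hoxc5 at 16.4 ± 1.05 stood above Hoxa5 (11.6 ± 1.04) and Hoxb5 (3.798 ± 1.07). Hoxc6 at 11.04 ± 1.75 was above Hoxb6 (6.09 ± 2.13) and Hoxa6 (2.49 ± 0.0158). Hoxc8 at 20.1 ± 2.03 was above Hoxd8 (1.91 ± 0.224) and Hoxb8 (0.425 ± 0.133). In each of these 4 groups the libraries of the Hoxc gene did not overlap those of its paralogs. The genes compared were read in the same 2 NHD13 libraries, too few for a test, and none was run. Presence in NHD13 was part of the choice of the members, so these ranks only describe them.

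In groups 9 and 10 the Hoxa gene was the highest. Hoxa9 was at 78.4 ± 0.457 CPM per kb in NHD13 against 3.21 ± 1.39 for Hoxc9, and Hoxa10 at 18.96 ± 1.40 against 0.364 ± 0.455 for Hoxc10. In WT Hoxa9 was at 32.3 ± 4.35 and Hoxa10 at 20.9 ± 0.787 CPM per kb. Hoxc9 was above Hoxb9 (0.355 ± 0.00916 CPM per kb) and Hoxd9 (0.274 ± 0.234) in NHD13 without overlap of libraries. Hoxc10 was above Hoxd10, at 0 and 0.0225 CPM per kb in NHD13. In library 2 that rested on 4 counts of Hoxc10 and 2 of Hoxd10, too few to rank them there.

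**Figure D4:**
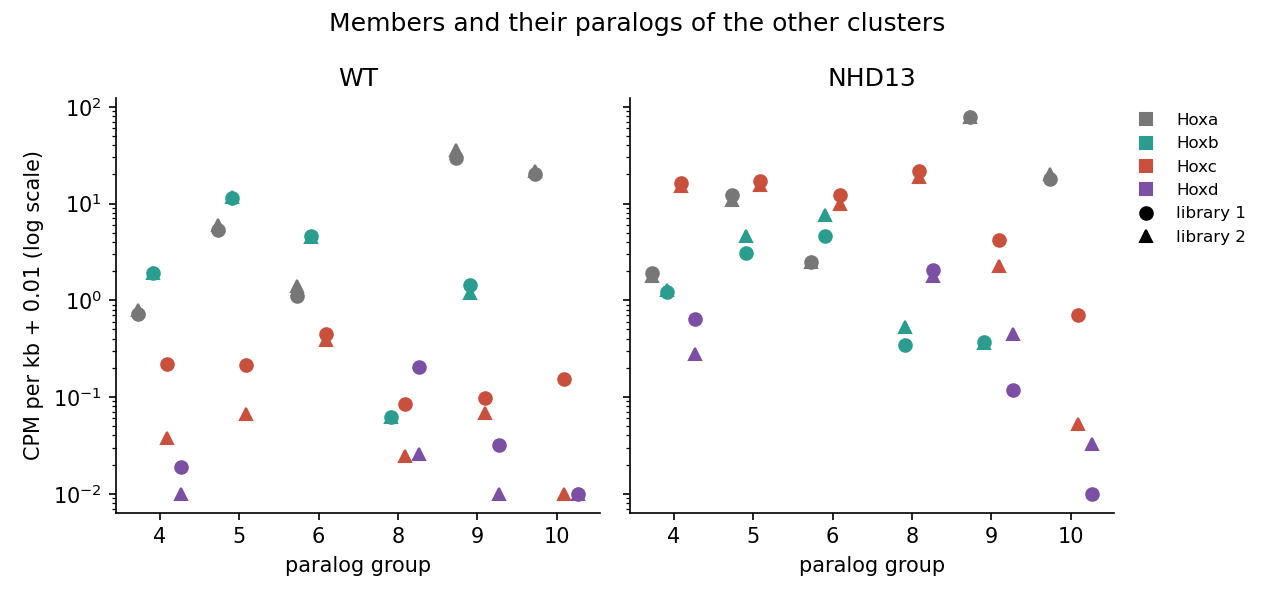
CPM per kilobase + 0.01, on a log scale, of the Hoxa, Hoxb, Hoxc and Hoxd genes of paralog groups 4, 5, 6, 8, 9 and 10 in each WT library (left) and NHD13 library (right). The Hoxc points lie below those of Hoxa and Hoxb in WT, except in group 8, and above those of all paralogs in groups 4, 5, 6 and 8 in NHD13.

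Over clusters A, B and D, 22 of 30 Hox genes passed the filter and 5 were called higher and 2 lower by edgeR's quasi-likelihood test at an adjusted p of 0.05, against 4.28 percent of all 14853 genes (2.07 percent higher and 2.22 percent lower). Their median log2 ratio was 1.13, against 0.001 over all genes. Hoxa11, Hoxd3 and Hoxd4, with 1 WT count each, and Hoxb8, with 6 and 5, passed the filter through NHD13 and had to differ. Hoxd8 and Hoxd13, with 1 and 3 counts in WT library 2, also needed NHD13 to pass. The median includes all of these genes. The called genes were Hoxa3 (1.22 ± 0.17, edgeR adjusted p 0.0373), Hoxa5 (1.04 ± 0.17, 0.0458), Hoxa7 (1.49 ± 0.14, 0.0192), Hoxa9 (1.28 ± 0.12, 0.0192), Hoxd3, Hoxb2 (-4.93 ± 0.43, 0.0153) and Hoxb5 (-1.59 ± 0.24, 0.0431). Hoxd3 is therefore a description rather than support, and 4 genes were called higher without it; it had a single WT count, in library 1, next to 79 NHD13 counts, a ratio of 75.9 (exact 95% interval 13.2 to 3033). Hoxd4 likewise had 1 WT count next to 89 NHD13 counts. Hoxd8 was at 0.345 and 0.0274 CPM in WT and 3.64 and 3.08 CPM in NHD13. Of Hoxd4 and Hoxd8, edgeR called neither (adjusted p 0.0549 and 0.0867), while DESeq2 called both (adjusted p 0.00467 and 0.000756). Both genes needed NHD13 to pass the filter, so their p-values are a description rather than support. Hoxb5 and Hoxd3 were not called with library totals as the scaling, and Hoxd3 did not pass the stricter 1 CPM filter. When either WT library was left out, edgeR called 0 of these Hox genes and 0 of all genes, with 2332 (WT library 1 out) and 2605 (WT library 2 out) at an unadjusted p under 0.05; DESeq2 on all 4 libraries called 2604. Without NHD13 library 1 edgeR called 2 of these Hox genes and without NHD13 library 2 it called 4.

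Genes that flank the cluster were measured to see whether they changed with it. Of 23 listed neighbours 19 passed the filter, and edgeR's quasi-likelihood test called 0 of them, while 4 had an unadjusted p below 0.05 and 2 were called by DESeq2. Over all 14853 genes edgeR called 4.28 percent, 3983 had an unadjusted p below 0.05 and DESeq2 called 2604, so with 19 genes a count of 0 is near the background and does not show that the neighbours were unchanged. Their log2 ratios ran from -1.47 to 0.56 with a median of 0.16, and 11 were above 0. On the Hoxc4 side, Smug1, the uracil glycosylase gene next to the cluster, was at 15.5 and 16.1 CPM in WT and 19.7 and 17.3 in NHD13 (log2 ratio 0.23 ± 0.15). Cbx5, which encodes the heterochromatin protein HP1 alpha, was at 154 and 193 CPM in WT and 288 and 225 in NHD13 (0.56 ± 0.18, edgeR adjusted p 0.13, DESeq2 adjusted p 0.0229). On the Hoxc13 side, Calcoco1, a coactivator gene, was at 92.8 and 83.9 CPM in WT and 56.0 and 89.7 in NHD13 (-0.28 ± 0.24).

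The neighbour with the smallest p was Pde1b, a phosphodiesterase gene 12 coding genes beyond Hoxc4. It was at 61.2 and 58.4 CPM in WT and 14.99 and 28.0 in NHD13 (log2 ratio -1.47 ± 0.31; edgeR adjusted p 0.0683, DESeq2 adjusted p 4.17e-05), and edgeR called it without NHD13 library 2. Between Hoxc4 and Smug1 lies the noncoding gene D930007P13Rik, which was looked at after its values were seen. It was counted 0 and 1 times in WT libraries and 23 and 27 times in NHD13 libraries, a ratio of 48.0 (exact 95% counting interval 8.23 to 1933), so its groups did not overlap.

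**Figure D5:**
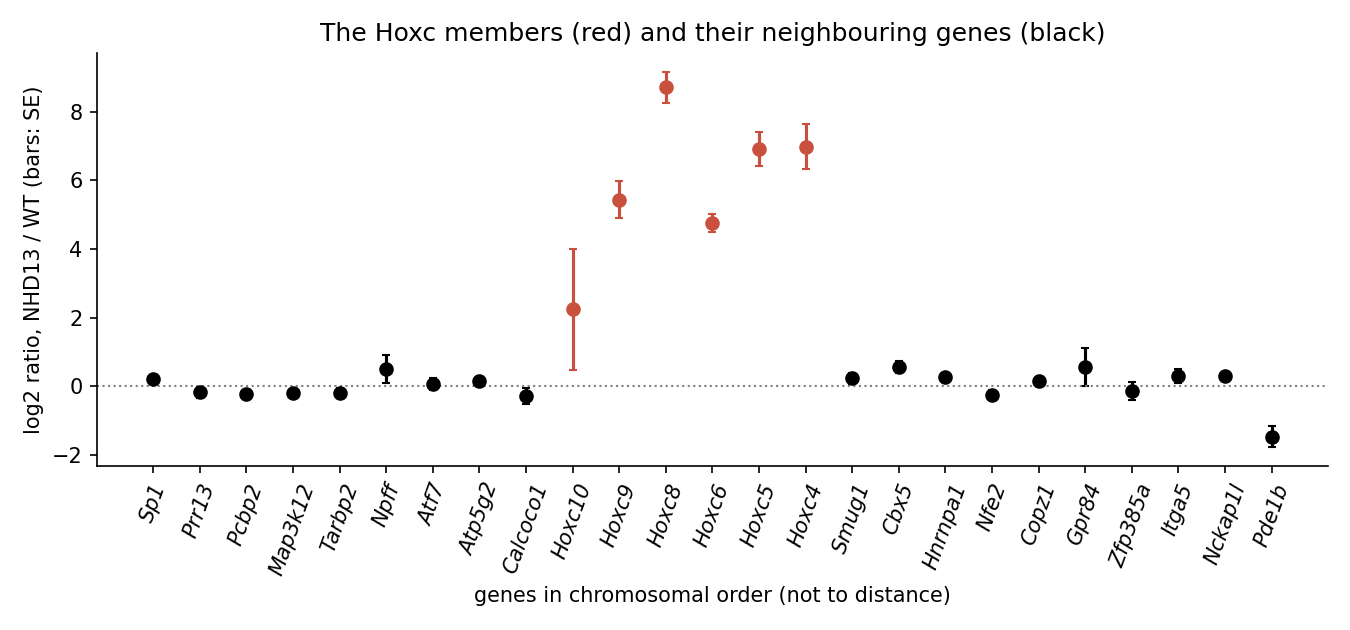
Fitted log2 ratio of NHD13 to WT, with SE bars, for the 6 Hoxc members (red) and the 19 neighbouring genes that passed the filter (black), in chromosomal order and not to distance. Black points lie between -1.47 and 0.56, and the red points between 2.24 and 8.71.

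One promoter of a member, that of Hoxc4, was in the RefSeq table used (GRCm38.p6), and its 250 bases before the transcript start, chr15:103034145-103034394 on the plus strand, are shown, with capitals on the single match to a searched motif.
Hoxc4: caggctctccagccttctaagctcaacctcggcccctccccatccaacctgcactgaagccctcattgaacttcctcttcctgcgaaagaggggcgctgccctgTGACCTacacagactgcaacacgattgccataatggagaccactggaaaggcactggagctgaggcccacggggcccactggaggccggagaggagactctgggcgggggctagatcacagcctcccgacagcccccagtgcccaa
The capitals are the reverse strand of AGGTCA, a half-site of retinoic acid and other nuclear receptors, which 14.0 percent of 32851 promoters held on either strand in the same 250 bases. The TATA word TATAAA (12.4 percent of promoters), the CCAAT word (33.8 percent), the MEIS word TGACAG (15.9 percent) and the CDX word TTTATGG (2.43 percent) had no match on either strand in this window. The window held 8 CpG against a median of 6, and 62.0 percent G and C against a median of 52.4 percent.

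Regulators known to act on Hox loci were read from a list of 33. Of 30 that passed the filter, 3 were called higher and 1 lower by edgeR's quasi-likelihood test, against the 4.28 percent of all genes, with a median log2 ratio of 0.12. Mllt3, which encodes AF9, a partner of the DOT1L methyltransferase, was at 509 and 548 CPM in WT and 154 and 132 in NHD13, and fell by 1.89 ± 0.12 on the log2 scale (edgeR adjusted p 0.00719). Ezh2, the methyltransferase of Polycomb complex 2, rose from 47.5 and 45.1 to 88.4 and 73.3 CPM (0.80 ± 0.13, edgeR adjusted p 0.0454). Its cofactor Jarid2 rose from 112 and 94.6 to 180 and 176 CPM (0.79 ± 0.12, edgeR adjusted p 0.0396). Xpo1, an export receptor that binds NUP98 fusions, rose from 128.5 and 131 to 222 and 190 CPM (0.67 ± 0.11, edgeR adjusted p 0.0475).

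Kmt2a, which encodes MLL1, was at 110 and 126 CPM in WT and 148 and 146 in NHD13 (0.32 ± 0.11, edgeR adjusted p 0.148), and Men1, its cofactor, had 0.02 ± 0.18. The caudal genes Cdx1 and Cdx4, which switch on Hox clusters in the embryo, had 0 counts in all libraries, and Cdx2 was counted 5 and 0 times in WT libraries and 0 and 3 times in NHD13 libraries. Ezh2, Jarid2 and Xpo1 were not called without NHD13 library 1, and with each WT library left out none of the 30 was called. All 3 were also not called with transcripts summed per gene or with a replicate block, Jarid2 not without NHD13 library 2 or with library totals as the scaling, and Xpo1 not with DESeq2 size factors.

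The genes whose pattern over the 4 libraries was most like the mean of the members, by Euclidean distance of log2(CPM + 0.1), were Stfa1 (distance 0.77), Mc2r (1.47), Slc24a3 (1.57), Pgm5 (1.63), Sema3a (1.63) and Pdcd1 (1.75). The members themselves lay at 1.21 (Hoxc9) to 6.80 (Hoxc10) from that mean, so the mean is not close to each of them. Stfa1, a stefin gene, was at 0.299 and 0.109 CPM in WT and 20.5 and 5.90 in NHD13. Mc2r, the corticotropin receptor gene, was at 0.207 and 0.219 CPM in WT and 34.5 and 13.9 in NHD13. Pdcd1, which encodes PD-1, was at 0.276 and 0.109 CPM in WT and 5.21 and 14.9 in NHD13. Pgm5 was at 12.9 and 27.6 CPM in NHD13. Pdcd1 and Pgm5 were thus higher in NHD13 library 2, opposite to the members. Slc24a3 (9.08 and 7.94 CPM) and Sema3a (9.575 and 4.755 CPM) were higher in NHD13 library 1, like the members.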

How the data were processed

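Per the labels' protocols, Trizol-extracted RNA (10 ng) went through the SMARTer Ultra Low kit and was read as 75-base pairs. The submitters' processing notes name Bowtie 0.12.2 and mm9. No counting program or strand setting is given in the sources used here, and reads of antisense partners cannot be told apart. The authors deposited raw counts for each RefSeq transcript, for 33018 transcripts in each of 4 libraries. Each gene was represented by its transcript with the highest total.

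Genes left by filterByExpr were scaled with TMM and compared by the robust quasi-likelihood test of edgeR 4.0.16, under R 4.3.3, on all 4 libraries with Benjamini-Hochberg adjustment over all genes, at 0.05; the fit was tested on simulated data. The SE is the log2 ratio divided by the square root of F. Counting intervals are exact (Clopper-Pearson) at 95%. The members, the gene lists and the rule for named genes were chosen with earlier results of these data known. Named were the members, the rest of the cluster, called genes of each list or the 2 with the smallest p, the paralogs, the transgene partners and the 6 most similar genes without a predicted name; other genes were named after their values were seen. Same-numbered libraries deviated from their group means with a correlation of -0.206 over genes, and the labels do not say that the numbers pair them. Alternatives were other scalings, filters, DESeq2 1.42.0, summed transcripts, a replicate block and leaving out each library; crossed numbers were added after seeing the data. No genome of build mm9 was used, and lengths and sequences come from GRCm38 references matched by accession. The homeobox sequence of the remaining member is not reported here.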

Additional observations from a re-analysis of the deposited data

How the results depend on the processing

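The members' NHD13 library ratios and the count of 5 of 6 members without overlap kept their values within their intervals, or within 1.5 times, under the other scalings. Leaving out a library gave 5 to 6 members without overlap, and log2 ratios of 6.23 to 9.07 for Hoxc4, 6.32 to 8.16 for Hoxc5, 4.59 to 4.91 for Hoxc6, 8.06 to 10.26 for Hoxc8, 4.92 to 5.83 for Hoxc9 and -0.75 to 7.78 for Hoxc10; the sign of Hoxc10 turned without NHD13 library 1 (-0.75). The 636 genes called by edgeR became 1138 without a filter, 1066 at 1 CPM in both libraries of a group, 2604 by DESeq2, 402 with transcripts summed and 0 to 990 with a library left out, where the lone library is assumed to vary like the intact group. The pairing of replicate numbers as a replicate block gave 107 calls, with 0 of the Hox genes of clusters A, B and D and 1 chromatin regulator; the crossed pairing gave 647 calls, with 4 of these Hox genes. Against 7 Hox genes called, DESeq2 gave 13, summed transcripts 4, library totals 5 (without Hoxb5 and Hoxd3) and leaving out a library 0 to 4. Against 4 chromatin regulators, summed transcripts gave 1 and leaving out a library 0 to 4. Of the neighbouring genes DESeq2 called 2, and 0 to 1 were called with a library left out. The cause of these changes was not tested. Some 7 to 52 counts of a member in the WT group limit the precision of its ratio.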

Other observations

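Few genes passed from near 0 to a clear level. Both WT libraries were under 1 CPM and both NHD13 libraries at 5 CPM or more in 26 genes, of which 5 were the Hoxc members. The ephrin receptor gene Epha3, at 0.253 and 0.0547 CPM in WT, reached 66.9 and 96.1 CPM in NHD13, above every Hoxc member in this set. The homeobox gene Meox2 was at 0.0460 and 0 CPM in WT and 6.40 and 8.39 CPM in NHD13, and the neuroendocrine gene Chga had 0 counts in both WT libraries against 7.51 and 6.45 CPM in NHD13. All 3 were picked from these 26 with their values known. The opposite pattern, under 1 CPM in both NHD13 libraries and at 5 CPM or more in both WT libraries, was also found in 26 genes.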
